A study of Mus musculus with 4 samples.

Results

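The genes described are those of the cytosolic ribosomal proteins, the proteins that together with ribosomal RNA make up the ribosome of the cytoplasm. They were chosen by name alone. A gene was a member when its symbol was Rpl or Rps followed by a number, with an optional letter or an l at the end, or was Rplp0, Rplp1, Rplp2 or Rpsa; Rps6k kinases and pseudogene symbols ending in -ps were left out. The rule found 83 genes of 20659 named genes, covered by 172 of 39429 probes. Of these genes 43 encoded proteins of the large subunit, 30 proteins of the small subunit, 3 proteins of the ribosomal stalk, and 7 were paralogues whose symbol ends in l. All but Rps4l, listed as a transcribed pseudogene, were protein-coding. A single probe represented 31 members and 52 had 2 or more, with 7 for Rpl17.

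The RNA came from lamina propria lymphocytes, immune cells isolated from the layer beneath the gut epithelium, of C57BL6 mice. All mice had received dextran sulfate sodium (DSS), which injures the colon lining, and cells were collected on day 10. Mice were wild type or lacked Stat4, the transcription factor downstream of interleukin-12, and within each genotype 1 group had DSS alone and another had DSS together with leukemia inhibitory factor (LIF, an interleukin-6 family cytokine). The 4 groups, each with 1 one-colour Agilent array prepared from cells of 5 mice, are called wild-type DSS, wild-type LIF, knockout DSS and knockout LIF below; whether their RNA was pooled is not stated, nor is the Stat4 allele, and untreated mice were not analysed here. With 1 array a group no difference has a replicate check, no p-value is given, and precision is limited by how few arrays there are.

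Ribosomal proteins are needed in nearly equal amounts, and their messenger RNAs are among the most abundant in growing cells. The transcripts of most of them start with a run of pyrimidines, the 5′ terminal oligopyrimidine (TOP) motif, through which the kinase complex mTORC1 controls their translation as a group. In lymphocytes this group is known for its response to activation and growth signals. Ribosomal protein genes also have many processed pseudogenes of near-identical sequence, so that a probe may detect more than its own gene; probe specificity was not checked here.

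The arrays differed in brightness, with a 75th percentile of the processed signal between 23.8 and 122.9, and the wild-type LIF array was the dimmest and stood apart from the others. Over the 155 member probes that passed background on all 4 arrays, its log2 levels correlated with those of the other arrays at Pearson's r of 0.92 to 0.95, against 0.98 to 0.99 among the others; over all 9349 named probes above background on all 4 arrays these values were 0.79 to 0.81 and 0.95 to 0.98. The DSS arrays of both genotypes came from a single scan and each LIF array from a scan of its own, so scan and LIF cannot be told apart. The only Stat4 probe did not separate the genotypes, with log2 levels of -0.49 and 0.21 in wild type and 0.31 and -0.48 on the arrays labelled knockout. Of 10 leukocyte and T cell markers 8 to 10 were above background, but so were 7 of 7 epithelial markers on every array and 5 of 6 stromal markers. B and plasma cell markers were above background in 6 to 8 of 8 and macrophage markers in 5 or 6 of 7. Neutrophil markers differed by genotype: 4 to 6 of 10 were above background in wild type and 7 of 10 on the knockout arrays, although Ltf, Mmp9 and Cxcr2 were dim on all arrays. Between genotypes under DSS the 6 neutrophil markers measured had a median of 2.82, 5 of them past 2-fold upward in the knockout, and all 4 measured for LIF in wild type lay below 0. Their mean log2 levels, with dim markers at their measured values, were 0.31 and 0.66 in wild type and 2.81 and 3.19 on the knockout arrays. Of the leukocyte and T cell markers 9 of 9 measured lay below 0 between genotypes under DSS, with a median of -0.57. Of the 7 epithelial markers 3 were at least 2-fold lower with LIF in wild type, namely Epcam at -2.64, Krt19 at -1.66 and Krt8 at -1.56, and Tff3 was higher at 3.19. In the knockout these were at 1.02, 0.62, 0.98 and -0.51. The mean level of the stromal markers was -1.20 and -1.12 in wild type against 0.37 and -0.10 on the knockout arrays. In such bulk RNA fewer cells of a type and less RNA per cell cannot be told apart, and the part of these cells in the values below was not tested.

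Almost every member was detected. A gene counted as detected when at least 50% of the unflagged spots of a probe of it carried the scanner software's mark for a signal well above background. This held for 81 members on the wild-type DSS array, 80 on wild-type LIF, 81 on knockout DSS and 82 on knockout LIF, and 80 of 83 (96.4%) were detected on all 4 arrays. Of all named genes 68.1%, 45.4%, 51.9% and 52.6% were detected on these arrays in the same order, and 39.5% on all 4. No member spot was saturated. The members not detected on every array were Rpl3l, Rpl10l and Rps4l. Rpl3l, the paralogue of Rpl3 known from striated muscle, was dim on every array.

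Levels are log2 values of the processed signal from which the array's own 75th percentile was taken off, a member is represented by its brightest probe, and it counted as measured between 2 arrays when both marked that probe well above background. A log2 difference of at least 1 in size, which is a 2-fold difference, is the size used to count genes. LIF in wild type gave members a median log2 difference of 0.53 over 80 measured genes, close to the median of 0.57 over all 8963 measured genes. Of these members 15 were at least 2-fold higher with LIF, where 34.5% of all genes were, and 11 were at least 2-fold lower, where 13.6% of all genes were. The spread among members was narrower than among all genes, with a standard deviation of 0.97 against 1.53. The sign of the median rests on the scaling: after normexp background correction with an offset of 50 it was -0.67, with 1 member past 2-fold upward and 27 downward, where 8.91% and 17.1% of all genes were, while the median of all genes moved to 0.06. With normexp and no offset it was 0.03.

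**Figure D1:**
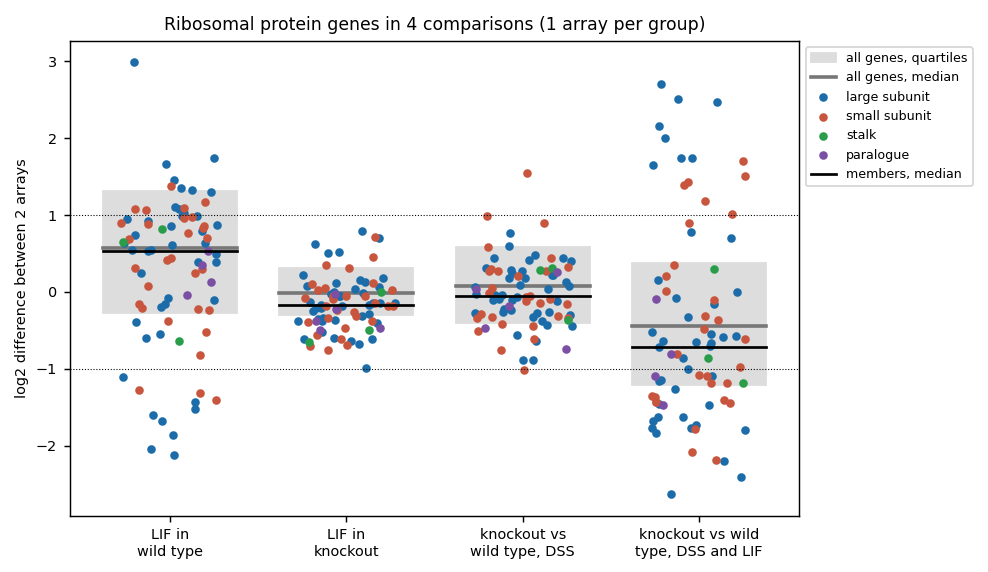
Log2 difference between 2 arrays (vertical axis) of each measured ribosomal protein gene in the 4 comparisons, coloured by role, with the members' median as a black line and the quartiles and median of all measured genes in grey. The points spread widely in both comparisons that use the wild-type LIF array (standard deviations 0.97 and 1.28) and lie close together in the other comparisons (0.36 and 0.44); the medians of 0.53, -0.17, -0.05 and -0.71 depend on the scaling, and the first was -0.67 after normexp with an offset of 50.

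For LIF in wild type the large subunit held the widest differences. Its 43 members had a median of 0.55 with LIF in wild type, with 10 higher and 8 lower, where 34.5% and 13.6% of all genes were, and a standard deviation of 1.15. The 30 small subunit members had a median of 0.43, with 5 higher and 3 lower against the same shares, and a standard deviation of 0.79. After normexp with an offset of 50 these medians were -0.67 and -0.67. Between genotypes under DSS the small subunit was wider, with a standard deviation of 0.54 against 0.37 for the large subunit.

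The lowest values in wild type with LIF were those of Rpl19, Rpl13, Rpl5, Rpl13a and Rpl21, all of the large subunit. Rpl19 and Rpl5 had 1 probe each and Rpl21 had 1 probe above background on all 4 arrays, so no other probe could be compared. Of the 3 Rpl13 probes 1 went the other way, at 1.11. Rpl19 had log2 levels of 4.15 on wild-type DSS, 2.03 on wild-type LIF, 3.88 on knockout DSS and 4.51 on knockout LIF, so it was low on the second array alone and 4.33-fold lower with LIF in wild type. Rpl13 had 5.96, 3.93, 5.75 and 6.44 on the arrays in the same order, a log2 difference of -2.04 for LIF in wild type. Rpl5, which binds the 5S ribosomal RNA and is also known as a regulator of the p53 inhibitor Mdm2, had 3.06, 1.19, 3.37 and 3.90. Its difference was -1.86. Rpl13a, known for a second role in silencing inflammatory transcripts after interferon-gamma, had 7.32, 5.64, 7.57 and 7.80. Rpl21 had 2.55, 0.95, 2.83 and 2.95. For all 5 genes wild-type LIF was the lowest array and knockout LIF the highest. These 5 differences were below -1 with each normexp setting, with quantile scaling and in the authors' deposited values; averaged over the probes of a gene, Rpl13 was at -0.78 and Rpl13a at -0.91.

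The highest values were those of Rpl24, Rpl10a, Rpl6, Rpl34 and Rps13. Rpl24, a large subunit protein whose mutation gives the Belly spot and tail mouse, had log2 levels of 3.30, 6.29, 3.57 and 3.66, a 7.94-fold higher value with LIF in wild type. Its other probe went the other way, at -0.98. Rpl10a had 5.65, 7.39, 6.13 and 5.92, a difference of 1.74, and its other probe gave 1.84. Rpl6 stood at 5.33 on wild-type DSS, 5.29 on knockout DSS and 5.27 on knockout LIF and was higher by 1.67 on wild-type LIF, while its other measured probes gave 0.37 and 0.14. Rpl34 had 7.47, 8.93, 7.38 and 6.73, and its probes gave 1.46 and 1.22. Rps13, with the highest difference of the small subunit, had 5.89, 7.26, 5.46 and 5.07, and its probes gave 1.38 and 0.87. In these 5 genes wild-type LIF stood above the other arrays. After normexp with an offset of 50 only Rpl24 of the 5 remained past 2-fold, at 1.67, and Rps13 was at 0.01.

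**Figure D2:**
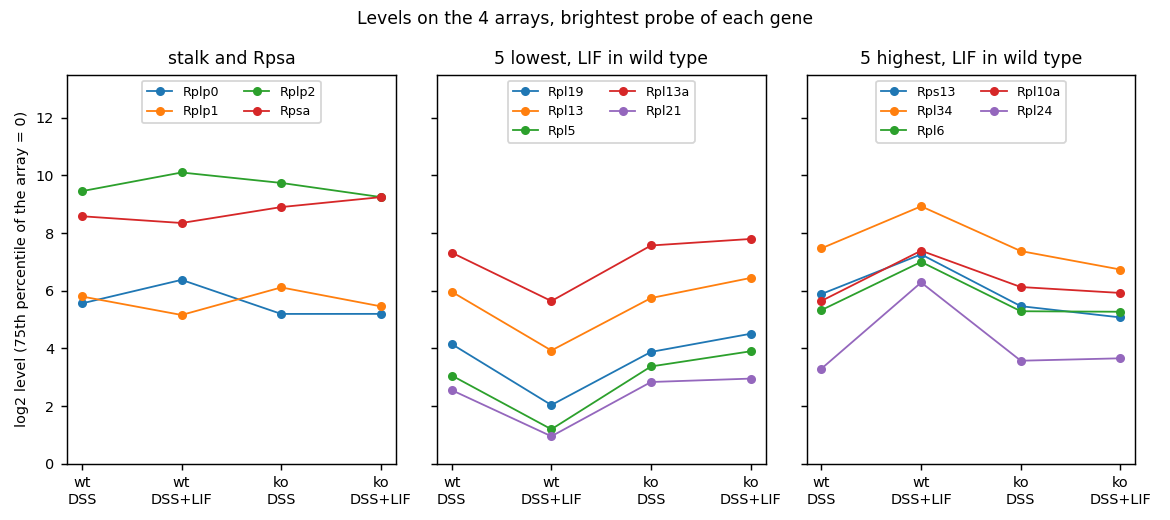
Log2 level on each of the 4 arrays (vertical axis, 0 is the array's 75th percentile) for the stalk genes with Rpsa and for the 5 members with the lowest and the 5 with the highest LIF difference in wild type; each point is 1 array, lines join the points of a gene, and heights are to be compared along a line only. The second array, wild-type LIF, is lowest in all lines of the middle panel (Rpl19 at 2.03 against 3.88 to 4.51 elsewhere) and highest in all lines of the right panel (Rpl24 at 6.29 against 3.30 to 3.66).

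The start regions of these genes are shown because the TOP motif would lie there. RefSeq promoter windows of build GRCm38.p6 matched 62 of the 83 members, and 9 of the 10 genes above had an entry; Rpl21 had none. Each line gives 45 bases before and 15 after the start of the first listed transcript, 5′ to 3′ on the gene's strand, and capitals mark runs of C or T of which at least 5 bases lie in the window from 10 bases before to 10 after the start, as far as they lie in it.
Rpl19: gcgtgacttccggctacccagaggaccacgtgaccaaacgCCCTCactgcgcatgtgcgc
Rpl13: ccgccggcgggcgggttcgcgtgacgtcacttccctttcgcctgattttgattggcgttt
Rpl5: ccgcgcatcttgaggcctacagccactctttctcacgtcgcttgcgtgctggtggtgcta
Rpl13a: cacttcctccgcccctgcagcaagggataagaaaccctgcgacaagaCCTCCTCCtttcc
Rpl24: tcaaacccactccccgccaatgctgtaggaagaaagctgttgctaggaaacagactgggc
Rpl10a: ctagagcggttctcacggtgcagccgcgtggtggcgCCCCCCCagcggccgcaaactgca
Rpl6: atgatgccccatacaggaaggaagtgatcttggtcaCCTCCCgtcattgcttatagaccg
Rpl34: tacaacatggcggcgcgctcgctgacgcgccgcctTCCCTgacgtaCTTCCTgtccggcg
Rps13: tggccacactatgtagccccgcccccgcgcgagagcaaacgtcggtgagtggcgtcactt
These windows lie at chr11:98026665-98026724 on the plus strand (Rpl19), chr8:123102305-123102364 plus (Rpl13), chr5:107900483-107900542 plus (Rpl5), chr7:45128731-45128790 minus (Rpl13a) and chr16:55966230-55966289 plus (Rpl24). The others are chr17:28328426-28328485 plus (Rpl10a), chr5:121204456-121204515 plus (Rpl6), chr3:130730384-130730443 minus (Rpl34) and chr7:116334176-116334235 minus (Rps13). Runs were marked in 2 of the 4 low genes (Rpl19 and Rpl13a) and in 3 of the 5 high genes (Rpl10a, Rpl6 and Rpl34). Over all matched members such a run was present in 35 of 62 (56.5%), against 34.4% of 27025 genes with a window. The ETS core CCGGAAG, searched on both strands over 300 bases, was in 24 members (38.7%) against 9.12% of all windows, and the YY1 core GCCATC, searched likewise, in 13 (21.0%) against 14.1%. The median LIF difference in wild type was 0.33 with and 0.55 without a pyrimidine run, 0.45 with and 0.49 without the ETS core, and 0.31 with and 0.49 without the YY1 core. A match describes the letters of the window and shows no site in use.

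In the knockout, no measured member differed by 2-fold with LIF; Rpl10l, which was not measured, has only a bound, given with the paralogues. Over 81 measured members the median log2 difference was -0.17, against -0.01 over all 9783 measured genes. At least 2-fold higher were 0 members, where 3.21% of all genes were, and at least 2-fold lower were 0 members, where 3.08% of all genes were. Below 0 were 57 of 81 members, where 4983 of all 9783 genes were. The standard deviation was 0.36 against 0.54 over all genes. This comparison depends on the background correction: after normexp 42 members were at least 2-fold lower with an offset of 50 and 66 with no offset, with medians of -1.04 and -1.55. Of all genes 8.89% and 24.2% were lower at these settings, with medians of -0.13 and -0.29, so the members lay further below 0 than all genes. Before scaling, the median of the member probes was -0.23 with the processed signal and -0.06 with both normexp settings, while the log2 difference of the arrays' 75th percentiles went from -0.06 to 0.91 and 1.42.

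The members with the highest LIF difference in the knockout were all below 0 in wild type. They were Rpl28 at 0.79, Rps2 at 0.72, Rpl13 at 0.70, Rpl19 at 0.63 and Rpl5 at 0.53. In wild type Rpl28 was at -1.52 and Rps2 at -1.28. The other Rps2 probe gave -0.05 in the knockout and 0.41 in wild type, and the other Rpl13 probes gave 0.16 and -0.16 in the knockout. The lowest in the knockout was Rpl39, a small protein at the exit tunnel of the ribosome, with log2 levels of 8.18, 9.52, 8.11 and 7.12 on the 4 arrays. Its LIF difference was -0.99 in the knockout and 1.35 in wild type, and its 3 probes gave -0.99, -0.83 and -0.34 in the knockout. Rps15a at -0.76, Rps28 at -0.71, Rps29 at -0.69 and Rpl30 at -0.68 followed. In wild type these genes were at 0.31, 0.97, 0.83 and 0.88. The other Rpl30 probes gave -0.82 and 0.36 in the knockout, and 0.17 and -0.64 in wild type.

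The LIF differences of the genotypes share no array, so they can be set against each other. Of the 11 members at least 2-fold lower with LIF in wild type, 11 lay above 0 in the knockout, at 0.10 to 0.79 with a median of 0.51; of all 1215 genes lower in wild type and measured on all 4 arrays, 54.1% lay above 0. Of the 15 members higher in wild type, 10 lay below 0 in the knockout, with a median of -0.06, against 51.3% of 2448 such genes. Of the 54 members within 2-fold in wild type, 46 lay below 0 in the knockout, against 55.8% of 4382 such genes. Over the 80 members measured on all 4 arrays the 2 differences had a Pearson's r of -0.57 and a Spearman's rho of -0.38, against -0.07 and -0.05 over 8045 genes. The points of this description share the arrays and their depth, and members may share sequence. The r was -0.53 with quantile scaling, -0.54 in the authors' deposited values, and -0.35 and -0.45 with the normexp settings. With both normexp settings the 11 members all lay below 0 in the knockout and all above the members' median there. Probe brightness moved with both differences. Over 155 member probes mean log2 level had an r of 0.34 with the LIF difference in wild type and -0.52 with that in the knockout, against -0.21 and -0.10 over all 9349 named probes. The median mean level was 3.05 for the 11 members and 6.27 for the 15, and the part of brightness in the pattern was not tested.

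**Figure D3:**
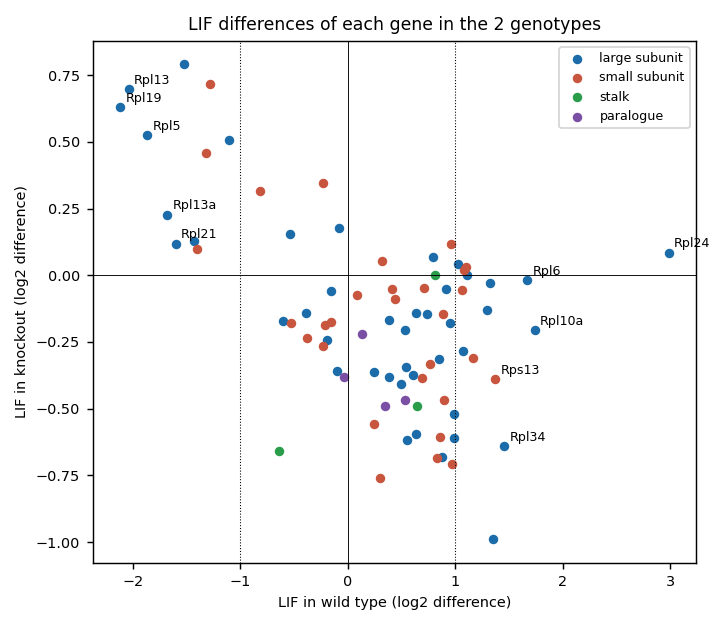
LIF difference in wild type (horizontal axis) and in the knockout (vertical axis), both log2, of the 80 members measured on all 4 arrays, coloured by role; dotted lines mark 2-fold in wild type. The 11 points left of -1 all lie above 0 on the vertical axis, and the 15 points right of 1 lie between -0.99 and 0.08; after normexp the same 11 lie below 0 and above the members' median.

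Between genotypes under DSS, the comparison within a single scan, the members lay close together. The median was -0.05 over 81 members, against 0.08 over 10500 genes, and the standard deviation 0.44 against 0.85. At least 2-fold higher in the knockout was 1 member, where 13.2% of all genes were, and at least 2-fold lower was 1, where 6.81% of all genes were. After normexp with an offset of 50 these counts were 0 and 16, where 3.19% and 7.69% of all genes were, and Rps27a was at -0.88 in the authors' deposited values. The lower member was Rps27a, made as a fusion of ubiquitin with a small subunit protein, at 7.32 and 8.42 in wild type and 6.31 and 6.34 in the knockout, a difference of -1.01. Its second measured probe gave -0.66. Neutrophil and stromal markers were higher and leukocyte and T cell markers lower on the knockout array in this comparison, as given above.

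Rps4x, Rps29, Rpl4 and Rpl37 were the highest members below 2-fold between genotypes under DSS, at 0.99, 0.90, 0.76 and 0.60. Of these Rps29 was at -0.23 and Rpl37 at -0.11 with quantile scaling. Rpl23, Rpl35a, Rps3 and Rpl36al were the next lowest after Rps27a, at -0.89, -0.89, -0.75 and -0.74. The other Rps3 probe went the other way, at 1.09. The other Rpl23 probes gave -0.32 and, for the probe printed 10 times per array, 0.54. Rpl23 also shows how closely spots of a probe repeat. A second Rpl23 probe, printed 10 times per array, had mean log2 levels of -1.05 ± 0.083 (SD, 9 spots), 0.32 ± 0.065 (SD, 10 spots), -0.51 ± 0.135 (SD, 10 spots) and -0.21 ± 0.075 (SD, 9 spots). These SDs cover error within an array alone.

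With LIF the genotypes were further apart. Each of these arrays came from a scan of its own, so scan and genotype cannot be told apart here. Over 80 members the median was -0.71, against -0.45 over 8348 genes. At least 2-fold lower in the knockout were 33 members, where 31.3% of all genes were, and at least 2-fold higher were 14, where 14.1% of all genes were. The standard deviation of the members was 1.28, against 1.57 over all genes. The lowest were Rpl24 at -2.63, Rpl39 at -2.41, Rpl34 at -2.19, Rps13 at -2.19 and Rps27a at -2.08. The highest were Rpl5 at 2.71, Rpl13 at 2.52, Rpl19 at 2.47, Rpl13a at 2.15 and then Rpl21, 4.00-fold higher. This comparison uses the same wild-type LIF array as the LIF comparison in wild type, so the overlap of their extremes is not independent. Other probes turned 2 of these genes, with Rpl24 at 1.54 and Rpl13 at -1.63. After normexp with an offset of 50, 40 members were lower and 6 higher, where 14.5% and 5.25% of all genes were. With no offset 54 were lower and 4 higher, where 34.1% and 5.44% of all genes were.

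Most of the spread among arrays was that of wild-type LIF. It was the highest array for 49 of the 80 members measured on all arrays and the lowest for 21, where it was so for 53.6% and 26.6% of 8045 genes. Knockout LIF was the lowest array for 43 members, where it was so for 20.9% of genes. The range of a member over the 4 arrays had a median of 1.20, from 0.21 for Rpl23a to 2.99 for Rpl24. Without wild-type LIF the median range was 0.54, and 73 of 80 members stayed within 2-fold, against 76.9% of genes. Over all 8045 genes the median range was 1.29 with the 4 arrays and 0.63 without wild-type LIF. Leaving out an array can only narrow a range, and no other array was left out for comparison.

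The stalk proteins form the arm of the large subunit that recruits elongation factors. Rplp0, its base, had log2 levels of 5.56, 6.38, 5.20 and 5.20, highest on wild-type LIF. Its other probes went the other way, at -0.65 and -0.78 for LIF in wild type against 0.82. Rplp1 had 5.80, 5.16, 6.12 and 5.46, with LIF differences of -0.64 in wild type and -0.66 in the knockout. Rplp2 had 9.45, 10.10, 9.74 and 9.25, with LIF differences of 0.65 and -0.49. None of these LIF differences reached 2-fold. Rpsa, a small subunit protein also known as a laminin receptor, had 8.58, 8.35, 8.90 and 9.25. Its LIF differences were -0.23 in wild type and 0.34 in the knockout, and its 2 other probes measured on all arrays gave -0.99 and -1.67 in wild type and 0.24 and 0.42 in the knockout.

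Probes of the same member often disagreed wherever the wild-type LIF array was used. Of 47 members with 2 or more probes above background on all arrays, 24 had probes at least 1 log2 unit apart for LIF in wild type, where 53.1% of 1095 such genes did, and 48.2% of the variance among their probes lay within genes. For LIF in the knockout 4 members had probes this far apart, where 9.22% of genes did. Probes past 2-fold in opposite directions within a gene occurred in 3 members for LIF in wild type, where 12.1% of genes had them. These were Rpl13, at -2.04, -1.40 and 1.11; Rpl7a, at 1.03, 0.98, 0.99 and -1.41; and Rpl17, at 1.11, 1.03, 0.47, -1.41 and -2.10, with 1 more probe between the last 2. The Rpl24 probes gave 2.99 and -0.98, so its direction in wild type rests on the probe chosen. For the genotypes with LIF 5 members had such probes, where 11.1% of genes had them, among them Rpl13, Rpl24, Rpl7a and Rplp0. Under DSS alone 8 members had probes at least 1 apart, where 18.9% of genes did, and 0 had opposite ones, where 0.548% of genes had them. Where the probes lie in the transcripts was not analysed here.

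**Figure D4:**
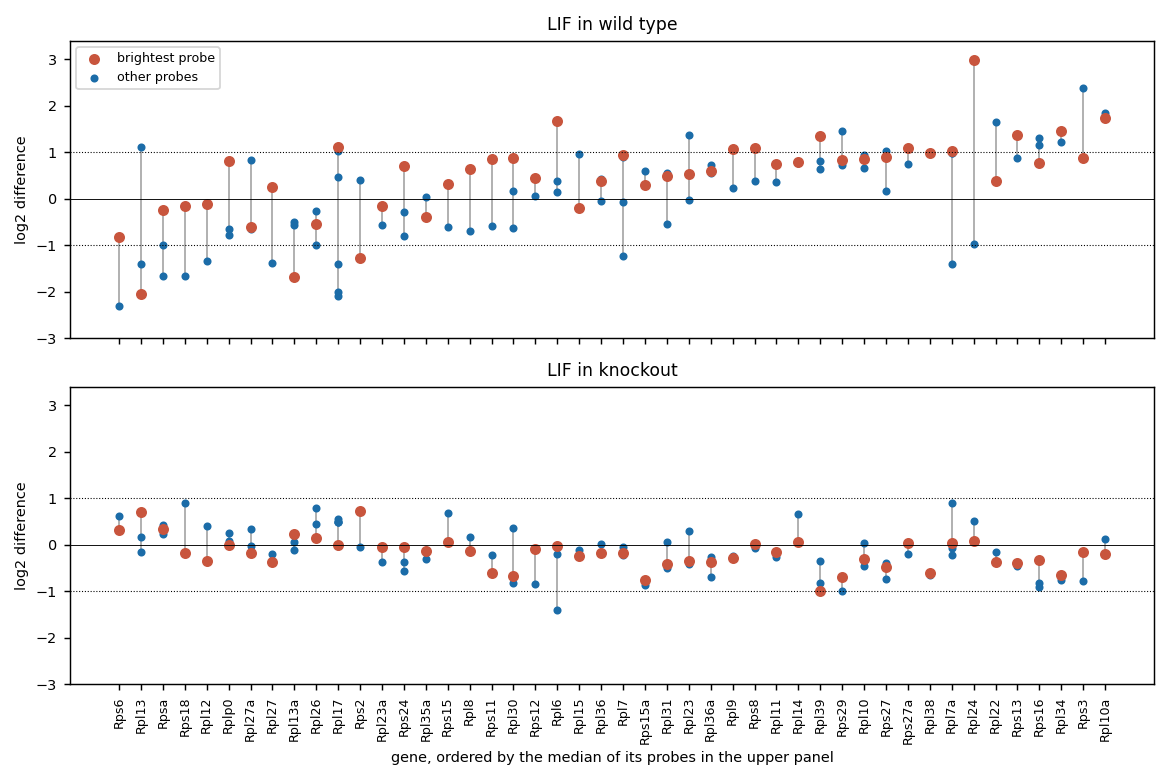
Log2 LIF difference (vertical axis) of each probe of 46 of the 47 members with 2 or more probes above background on all 4 arrays, in wild type (upper panel) and in the knockout (lower panel); red marks the brightest probe, blue the others, grey lines join probes of a gene and dotted lines mark 2-fold. In wild type 24 genes have probes at least 1 apart and Rpl17 spans -2.10 to 1.11, while in the knockout 4 genes have probes this far apart.

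The paralogues, several of them known from testis or muscle, were compared with their parents by difference and not by level. Rpl10l, a testis paralogue of Rpl10, was above background on knockout LIF alone and by 1 of its 2 probes. It was at least 4.22-fold higher there than on knockout DSS and at least 2.72-fold higher than on wild-type LIF, taking the dimmest signal above background on the dim array as its level. These bounds come from a probe that is not the brightest of the gene; the brightest was not well above background on any of the 4 arrays. Rpl10 itself had LIF differences of 0.85 in wild type and -0.31 in the knockout. Rps4l was dim on wild-type LIF and thus at least 2.33-fold lower there than on wild-type DSS, whereas Rps4x was at -0.21. Rpl32l was at -0.03 for LIF in wild type and Rpl32 at 1.33. Rpl36al was at 0.13 and Rpl36a at 0.61, Rpl39l at 0.35 and Rpl39 at 1.35, and Rps27l, a p53 target, at 0.53 and Rps27 at 0.89. Rpl3 was at -0.08, and Rpl3l gave no difference. In the knockout all 5 measured paralogues were below 0 with LIF, from -0.49 for Rpl39l to -0.02 for Rps4l.

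Other genes of translation were taken from lists. The ribosomal proteins of mitochondria, which share no subunits with the cytosolic ribosome, had a median of 0.64 for LIF in wild type, with 17 of 53 measured genes higher, where 34.5% of all genes were, and 1 lower, where 13.6% were. A further 24 were above background on wild-type DSS but not on wild-type LIF and were not measured; 2 of them, Mrpl42 and Mrpl54, were lower by at least 2.96 and 1.07 on the log2 scale. With such bounds 3 of 77 were lower, where 12.8% of all genes were. In the knockout their median was 0.07, with 1 of 65 higher and 0 lower, where 3.21% and 3.08% of all genes were. Between genotypes with LIF 26 of 53 were lower in the knockout and 1 higher, where 31.3% and 14.1% of all genes were. Their median was -0.93. After normexp with an offset of 50 these counts were 12 and 0, where 14.5% and 5.25% of all genes were, with a median of -0.55. A further 17 were above background on knockout LIF but not on wild-type LIF, and 4 of them were past 2-fold higher at their bound. With such bounds, on the processed signal, 26 of 70 were lower and 5 higher, where 27.4% and 15.8% of all genes were. Mrpl58 at 2.34, Mrps7 at 2.22 and Mrps10 at 2.00 were the highest for LIF in wild type. The 1 measured lower gene, named after its value was seen, was Mrpl27 at -1.74. The first median was -0.13 after normexp with an offset of 50.

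The list of elongation factors and other TOP messenger RNAs had 5 of 13 measured genes higher and 2 lower for LIF in wild type, where 34.5% and 13.6% of all genes were, with a median of 0.38 (-0.38 after normexp with an offset of 50). The other 3 genes of the list were not above background on wild-type LIF, and of these Eif3f and Eif4b were lower by at least 1.29 and 1.18. With these bounds 4 of 16 were lower, where 12.8% of all genes were. Npm1, a nucleolar chaperone, was at 1.86 and Btf3 at 1.82. The elongation factors Eef1g and Eef2 were at -1.59 and -1.47, and in the knockout at 1.01 and 0.28. Between genotypes with LIF 2 of 13 were higher and 5 lower, where 14.1% and 31.3% of all genes were. With the bounds of Eif3f and Eif4b 4 of 16 were higher, where 15.8% of all genes were. Ribosome biogenesis factors had 4 of 20 higher and 3 lower for LIF in wild type, where 34.5% and 13.6% of all genes were. Their median was 0.53. In the knockout 1 of 21 was higher and 0 lower, where 3.21% and 3.08% of all genes were. With bounds 2 of 23 were higher there, where 4.06% of all genes were. For LIF in wild type the largest sizes were Nop58 at 1.56, a component of small nucleolar ribonucleoproteins, and Mdn1 at -2.43, an ATPase of large subunit assembly. Of the mTORC1 and Myc control genes 7 were measured for LIF in wild type. Of these 1 was higher (Max, the partner of Myc, at 2.49) and 0 lower, where 34.5% and 13.6% of all genes were. Their median was 0.56. Of both these lists a further 7 genes each were above background on wild-type DSS and not on wild-type LIF, and 0 were past 2-fold at their bound. Under DSS the genotype difference of the control genes was largest for Rheb, the activator of mTORC1, at -1.97. After normexp with an offset of 50 the LIF medians of the biogenesis and control lists in wild type were -0.09 and -0.60.

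Of 4 measured genes on a list of ribosomal proteins and partners outside the name rule, 3 were higher with LIF in wild type, where 34.5% of all genes were. After normexp with an offset of 50 it was 0, where 8.91% of all genes were. Fau, which carries Rps30, was at 1.82, Rack1 at 1.18 and Rpl22l1 at 0.95. Between genotypes with LIF the 4 measured genes of this list were all at least 2-fold lower in the knockout, where 31.3% of all genes were. Their median was -1.69, against -0.45 over all genes. Both comparisons use the wild-type LIF array, so these counts are not independent. The median of the list for LIF in wild type was 0.21 after normexp with an offset of 50. Rps3a1, added after its values were seen, was at -0.78 for LIF in wild type and 0.42 in the knockout. Of 10 commonly used reference genes 3 were higher and 1 lower for LIF in wild type, where 34.5% and 13.6% of all genes were. Their median was 0.68. In the knockout 0 differed by 2-fold, where 3.21% of all genes were higher and 3.08% lower. After normexp with an offset of 50 the median of the reference genes in wild type was -0.52. With this setting 0 were higher and 2 lower, where 8.91% and 17.1% of all genes were. In the knockout 3 were lower, and 6 with no offset, where 8.89% and 24.2% of all genes were.

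**Figure D5:**
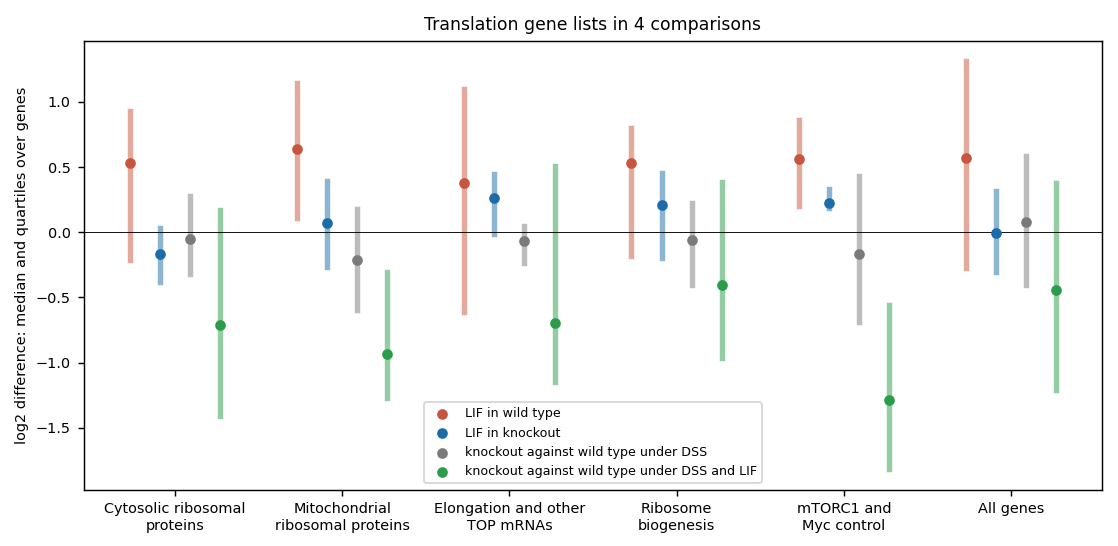
Median (point) and quartiles (bar) of the log2 difference in each of the 4 comparisons (colours) for the cytosolic ribosomal proteins, the other translation lists and all measured genes. For LIF in wild type the medians of the lists lie between 0.38 and 0.64 beside 0.57 for all genes, but below 0 for every list shown after normexp with an offset of 50, where all genes lie at 0.06.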

How the data were processed

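The authors deposited scanner files with the intensity of each spot, made with Agilent Feature Extraction (11.0.1.1 per the file headers, 9.1 per the submitters' processing notes), and a table of log2 values of the same arrays. The processed signal is background-subtracted intensity, per the file headers. The deposited log2 columns have medians of 3.31, 2.54, 3.31 and 3.31 (DSS, then DSS and LIF, first for wild type) and Pearson correlations of 0.971 to 0.992 with the log2 scanner values, so their scale and direction are known; their centring and floor are not given in the sources used here. In the second column 51.1% of values lie at the lowest one.

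Unflagged spots of a probe were averaged as log2, and the 75th percentile over 43020 non-control spots was subtracted. Probes were named through RefSeq accessions (assembly GRCm38.p6, names and promoter windows alone; 69.1% of probes named). Each member gene takes its brightest probe. Bounds set the dim probe at the higher of its own value and the dimmest signal above background on that array; for the lists they were added after the values were seen. Normexp (limma 3.58.1 in R 4.3.3; the files used here hold median signals) used offsets of 50 and 0. Other steps ran in Python 3.11.15 with pandas 2.3.3 and were tested on simulated data.

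Genes named are Rplp0, Rplp1, Rplp2 and Rpsa, the 5 highest and 5 lowest members of each comparison, paralogues with their parents, members never above background, members with probes at least 2-fold in opposite directions, and up to 4 genes of largest size per list. Some genes that these rules name are not reported here. Members and lists were chosen with earlier results of these data known. Alternatives were 2 normexp offsets, 3 other scalings, no or a stricter background filter, other ways to combine probes, flagged spots kept, the deposited table, and member rules with more or fewer symbols.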

Additional observations from a re-analysis of the deposited data

Results flagged for a closer look

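For 8 members the arrays with LIF moved in opposite directions in the genotypes, by at least 2-fold in wild type and by at least 0.5 on the log2 scale in the knockout. With 1 array per group this difference was not tested, and the share of all genes that meet this rule was not computed. The opposite directions depend on the background correction. With both normexp settings the 11 members lower in wild type all lay below 0 in the knockout. Rpl19, Rpl13, Rpl5, Rpl28, Rps2 and Rpl18 are among these 11. The difference of the LIF differences, knockout minus wild type, was 2.75 for Rpl19 (-2.12 in wild type, 0.63 in the knockout), 2.74 for Rpl13 (-2.04 and 0.70, where another of its probes gave 1.11 and -0.16), 2.39 for Rpl5 (-1.86 and 0.53) and 2.31 for Rpl28 (-1.52 and 0.79). It was 2.00 for Rps2 (-1.28 and 0.72, where its other probe gave 0.41 and -0.05) and 1.61 for Rpl18 (-1.10 and 0.51). In the other direction it was -2.34 for Rpl39 (1.35 and -0.99) and -2.10 for Rpl34 (1.46 and -0.64). Rpl18 is named for this difference, after its values were seen. Of all 80 members 12 had a difference of the LIF differences of at least 1 and 31 of at most -1, where 16.7% and 33.4% of 8045 genes did.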

How the results depend on the processing

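Of 227 values recomputed for medians and counts under 15 alternatives, 166 stayed near the first value (a median within the largest SD between spots, 0.091, a count within 1.5 times) and 61 did not. Signs were followed only for the reported members among the 5 highest and 5 lowest of each comparison. Of these none but those named last changed sign after passing 2-fold. Other named genes can turn, such as Rps2 for LIF in wild type, at -1.28 by its brightest probe and 0.41 by its other. Values follow in the order LIF in wild type, LIF in knockout, knockout against wild type under DSS, and the same with LIF, for those that moved. With normexp and an offset of 50 the medians were -0.67, -1.04, -0.56 and -0.98, the higher counts 1 (LIF in wild type), 0 (knockout under DSS) and 6 (under DSS and LIF), and the lower counts 27, 42 and 16; the difference of the LIF differences had a median of -0.43 with 15 lower. With no offset the medians were 0.026, -1.55, -0.19 and -1.81, the higher counts 3 and 4 in the comparisons with wild type under LIF, and the lower counts 66, 2 and 54 in the last 3; the difference of differences had -1.70, 5 higher and 53 lower. Quantile scaling gave -0.21 with 3 lower under DSS, and -0.95 under DSS and LIF. Scaling to the median of probes above background on all arrays gave 0.39 with 9 higher, -0.57 for the genotypes with LIF, and -0.67 with 20 lower for the difference of differences; their 75th percentile gave 0.33 with 8 higher, -0.52, and -0.57 with 17 lower. For the scalings to that median or percentile the shift follows by construction. With normexp the arrays' 75th percentiles moved more than the members' unscaled values in each comparison.

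Averaging over probes gave medians of 0.25, -0.56 for the genotypes with LIF and -0.51 for the difference of differences, with 0 higher and 0 lower under DSS. Counting probes in place of genes gave a median of 0.42 with 27 higher and 22 lower, then 1 lower in the knockout, 3 and 3 under DSS, 30 and 60 with LIF, and 28 and 56 for the difference of differences; here there are more units. No background filter gave 1 lower for LIF in knockout and 2 higher under DSS. The deposited values gave 2 lower under DSS and -0.87 under DSS and LIF, and symbols ending in l1 gave 2 lower under DSS. Adding Rps3a1 and taking the dimmest probe were chosen after seeing the data. The dimmest probe gave medians of 0.36, -0.52 and -0.46 (LIF in wild type, genotypes with LIF, difference of differences) and 2 lower under DSS. It turned Rpl13 to 1.11 and Rpl24 to -0.98 for LIF in wild type, and Rpl24 to 1.54 and Rpl13 to -1.63 under DSS and LIF. The cause of the differences between probes was not tested.

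No paired analysis was possible because each group has a single array and the labels carry no replicate numbers. Leaving out a replicate could not be run for the same reason. Signal over background limited Rpl3l, Rpl10l and Rps4l, and the dimmest array limits every value that uses wild type with LIF.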
